A study of Homo sapiens with 6 samples.

Results

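CHI3L2 and 5 related genes of the chitinase-like family were examined in Jurkat, a long-established cell line from a human T cell leukaemia. The set holds 6 of the 58735 genes counted, CHI3L2, CHI3L1, CHIT1, CHIA, CTBS and CHID1, found by symbol in GENCODE 29. The set was chosen by family, around CHI3L2, which was selected on its high level and its fall in these same libraries. The difference between the groups is therefore given for the members as a description, with no p-value. Whether a member passed the threshold of the fit over all genes is stated once and supports nothing. Cells had been infected with a lentivirus carrying a control short hairpin RNA (shCtrl) or a hairpin against SATB1 (shSATB1), a chromatin-organising DNA-binding protein of T cells, with 3 RNA-seq libraries in each group. All libraries thus come from 1 cell line that carries a hairpin vector, and no uninfected cells were compared. The labels do not tell whether replicates came from independent infections, and p-values here reflect library-to-library spread that may be technical.

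The family belongs to the glycoside hydrolases, and its active enzymes cut chains of N-acetylglucosamine such as chitin. CHIT1 and CHIA encode the active chitinases of humans, made mainly by macrophages and by stomach and airway epithelium. CHI3L1 and CHI3L2 encode secreted lectins that lost the catalytic residues and can bind chitin-like sugars without cutting them, and both were first studied as products of cartilage and inflamed tissue. CTBS encodes a lysosomal enzyme that splits the chitobiose core left from glycoprotein breakdown. CHID1 encodes a more distant chitinase-like protein that binds the scavenger receptor stabilin-1. A role of these genes in T cells is less well described.

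The promoters of CHI3L2 and CHID1, the members with the highest levels, are shown beside that of CHI3L1, the closest lectin relative, which had almost no reads. The RefSeq windows (GRCh38.p14, 300 bases each, read along the gene's strand) are chr1:111227409-111227708 on the plus strand for CHI3L2, chr11:914796-915095 on the minus strand for CHID1 and chr1:203186655-203186954 on the minus strand for CHI3L1. Capitals mark matches on either strand to 4 short motifs. The TATA box was searched as TATAAA and the core of GATA factor sites as GATAA. The core of RUNX sites was searched as TGTGGT, and the E-box of TAL1 and related factors, which reads the same on both strands, as CANNTG.
CHI3L2: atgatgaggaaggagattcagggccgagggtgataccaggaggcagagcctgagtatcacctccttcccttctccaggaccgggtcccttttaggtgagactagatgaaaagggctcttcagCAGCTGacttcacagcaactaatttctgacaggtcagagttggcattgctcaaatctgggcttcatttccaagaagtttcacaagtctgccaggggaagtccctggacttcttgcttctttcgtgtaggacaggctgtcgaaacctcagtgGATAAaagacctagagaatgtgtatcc
CHID1: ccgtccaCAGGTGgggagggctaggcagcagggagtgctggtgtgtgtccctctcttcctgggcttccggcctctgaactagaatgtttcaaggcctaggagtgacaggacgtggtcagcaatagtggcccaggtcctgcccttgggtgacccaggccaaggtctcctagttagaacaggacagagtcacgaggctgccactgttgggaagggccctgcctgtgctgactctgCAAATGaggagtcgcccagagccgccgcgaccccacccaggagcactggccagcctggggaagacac
CHI3L1: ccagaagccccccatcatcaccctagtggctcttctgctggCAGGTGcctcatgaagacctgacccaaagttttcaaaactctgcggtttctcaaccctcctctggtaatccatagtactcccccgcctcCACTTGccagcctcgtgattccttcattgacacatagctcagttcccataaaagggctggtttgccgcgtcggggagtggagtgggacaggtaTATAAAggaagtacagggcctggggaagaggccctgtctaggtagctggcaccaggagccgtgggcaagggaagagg

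The CHI3L2 window held 1 E-box at positions -128 to -123, counted from the RefSeq start as +1, and 1 GATAA at +24 to +28. It held no TATAAA and no TGTGGT. The CHID1 window held 2 E-boxes and none of the other motifs. The CHI3L1 window held 2 E-boxes and a TATAAA at -27 to -22. Among 35114 promoter windows of the same length, 68.7% held CANNTG, 22.7% GATAA, 13.1% TGTGGT and 11.5% TATAAA. The share of A and T was 50.3% in CHI3L2, 44.0% in CHI3L1 and 37.7% in CHID1, against a median of 41.3% over all windows. The CHI3L2 window ranked at the 70.0th percentile. These matches describe letters only, and no binding was measured. RefSeq places the start of this window at base 111227659 and a further CHI3L2 start at 111227713, whereas GENCODE places the outermost start 26.9 kb upstream, where 1 of its 17 transcripts begins. Counted from the start at 111227713, the same GATAA lies at -31 to -27 and the same E-box at -182 to -177.

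The knockdown was checked first. SATB1 stood at 279.1, 258.5 and 259.3 CPM in shCtrl replicates 1, 2 and 3 and at 101.8, 100.2 and 104.1 CPM in shSATB1, which left 38.4% of the control level. CPM are reads per 1000000 after scaling for library composition. All 6 libraries carried T cell transcripts. The 8 T cell markers summed to between 1643 and 1911 CPM in shCtrl and between 1613 and 1713 CPM in shSATB1, and none was at 0. By edgeR, at a Benjamini-Hochberg adjusted p under 0.05, 30.9% of all 17520 tested genes were called, 14.3% higher and 16.6% lower in shSATB1. Of the 8 T cell markers 1 rose, TRAC, the T cell receptor alpha constant gene (155.6 ± 17.3 to 214.9 ± 8.91 CPM), and 4 fell, among them CD2, CD5 and CD3D with log2 fold changes of -0.39, -0.33 and -0.31. CD2 and CD3D lost the call with the share of no-exon reads, given next, as a covariate (adjusted p = 0.424 and 0.767), and CD3D also without shSATB1 replicates 1 or 3. The 8 macrophage and monocyte markers summed to between 1.76 and 1.96 CPM in shCtrl and between 1.55 and 2.59 CPM in shSATB1, with MARCO at 0 in all libraries. CD14 and ITGAM, which passed the filter, were not called. The 6 chondrocyte markers summed to at most 0.364 CPM in any library, with SOX9 at 0. Of the 5 B cell markers, CD79A stood at 60.5 and 50.4 CPM in shCtrl and shSATB1 and the other 4 at or below 0.332 CPM on average. CD79A fell by 0.26 on the log2 scale (edgeR adjusted p = 0.0249), and lost the call in 4 of 14 alternatives (adjusted p 0.000697 to 0.989), with the covariate and without shCtrl replicate 3 or shSATB1 replicates 1 or 3. Reads that fell in no annotated exon made up 7.77% to 10.2% of all reads listed in shCtrl and 10.9% to 11.7% in shSATB1, higher in every knockdown library. This share, called the no-exon share below, enters the alternatives as a covariate, and its part in the results was not otherwise tested. Fewer cells of a kind and less RNA per cell cannot be told apart in these bulk libraries.

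CHI3L2 (ENSG00000064886, chromosome 1, 111200771 to 111243440, plus strand, hg38) was among the most abundant transcripts of these T cells and stood far above the rest of its family. Levels between genes were compared per length, in TPM (reads per merged exon length scaled to 1000000 per library). CHI3L2 measured 2053.5, 2193.5 and 2106.1 TPM in shCtrl replicates 1, 2 and 3. This was the 37th highest mean among 34788 genes with a read in any library. In shSATB1 it measured 893.6, 909.6 and 852.4 TPM, the 85th highest mean. CHI3L2 alone took 0.172% to 0.195% of all reads in genes in shCtrl and 0.0703% to 0.0762% in shSATB1.

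CHID1 came next at 33.0 ± 0.0320 TPM (SD, n = 3) in shCtrl and 26.2 ± 1.54 TPM in shSATB1. CHI3L2 exceeded it 64.2 ± 2.15 times in shCtrl and 33.8 ± 1.15 times in shSATB1. CTBS followed at 1.30 ± 0.200 and 1.77 ± 0.205 TPM. The order CHI3L2, CHID1, CTBS held in all 6 libraries with no overlap between neighbours. CHIT1 averaged 0.0748 ± 0.0342 and 0.119 ± 0.0554 TPM, below CTBS in all 6 libraries. CHI3L1 and CHIA were lower still, and the order of these 3 genes rests on single reads.

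**Figure D1:**
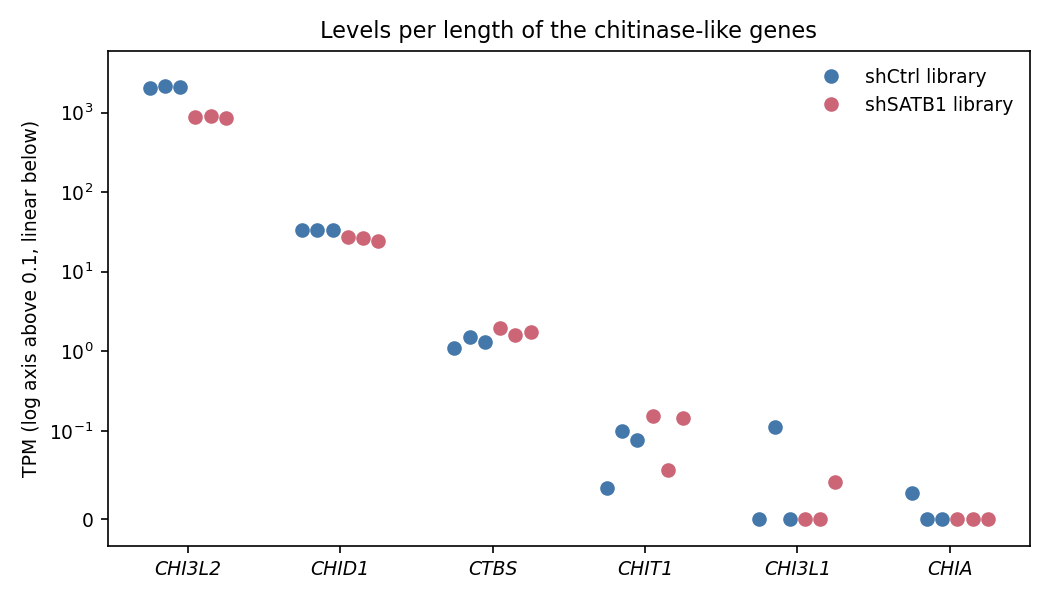
Levels per length of the 6 family members in each library, in TPM on an axis that is logarithmic above 0.1 and linear below; blue points are the 3 shCtrl libraries and red points the 3 shSATB1 libraries. CHI3L2 lies near 2118 TPM in shCtrl and 885 TPM in shSATB1, CHID1 near 33.0 and 26.2 TPM, and CHIT1, CHI3L1 and CHIA near 0.

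The fall of CHI3L2 was large and even between libraries. It was counted with 48989, 56461 and 50264 reads in shCtrl replicates 1, 2 and 3 and with 19660, 21051 and 19797 reads in shSATB1. On the CPM scale these were 1758, 2053 and 1856 CPM in shCtrl and 715.7, 742.7 and 682.6 CPM in shSATB1. The lowest control library was thus more than 1000 CPM above the highest knockdown library, and the 3 knockdown libraries lay close together. On the log2 scale CHI3L2 changed by -1.40 (standard error 0.0713, 95% interval -1.56 to -1.25), or 2.65-fold lower, which left 37.8% of the control level. SATB1 itself changed by -1.38 (standard error 0.0611). With the no-exon share as a covariate, the value for CHI3L2 was -1.18, and without single libraries it lay between -1.46 and -1.34.

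Among 67 genes with at least 1000 CPM in shCtrl, a level chosen after the data were seen, CHI3L2 had the lowest log2 fold change. The next were CALR, which encodes the endoplasmic reticulum chaperone calreticulin, at -1.10, and MYO7B, an unconventional myosin gene, at -0.90. Falls were common at this level, with 44 of the 67 genes called lower and 73.1% called in either direction. Over all tested genes 16.6% were called lower and 30.9% in either direction. Over all 17520 tested genes CHI3L2 ranked 26th from the lowest log2 fold change. CHI3L2 lost 1175 CPM, the second largest loss in CPM after EEF1A1, a translation elongation factor gene that lost 2797 of its 11927 CPM. CHI3L2 was also set beside genes of similar length. The 2034 genes of at least 8 CPM with 3127 to 4566 bases of merged exons, the fifth that holds CHI3L2, had a median of -0.11. Of these, 2 were as low as CHI3L2, CHI3L2 included. These ranks describe the value for which the gene was chosen.

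**Figure D2:**
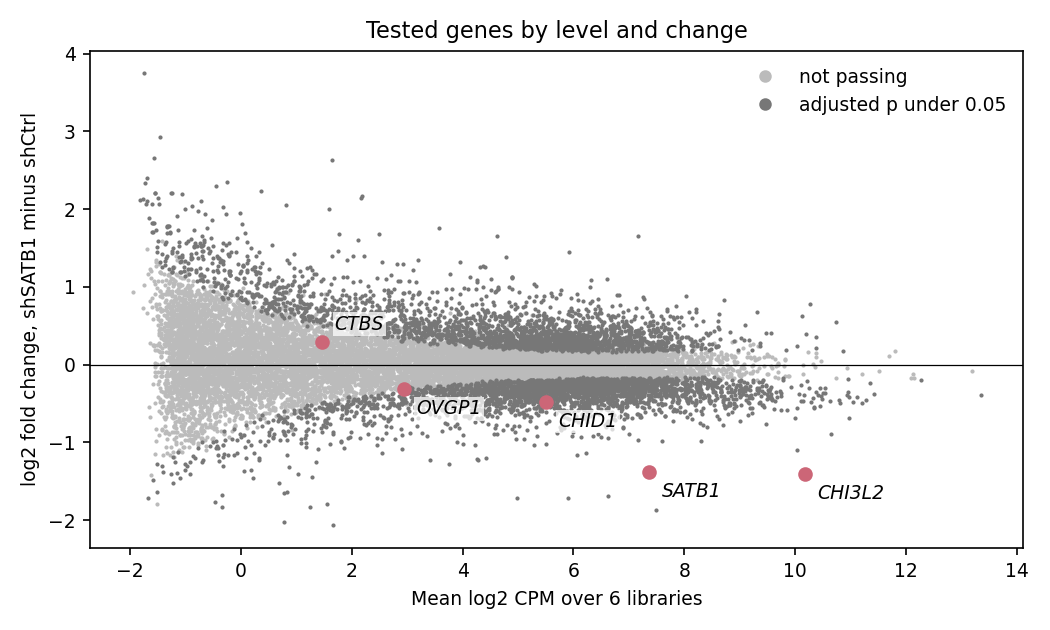
Each of 17520 tested genes by mean log2 CPM over 6 libraries (x axis) and log2 fold change of shSATB1 against shCtrl (y axis), with genes past an adjusted p of 0.05 in dark grey and 3 family members, the relative OVGP1 and SATB1 in red. CHI3L2 at -1.40 is the lowest of the 67 genes with at least 1000 CPM in shCtrl, and CALR at -1.10, not marked, is the next. CHID1 at -0.48 and CTBS at 0.29 lie within the cloud.

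Of the 6 members, 3 passed the filter on low counts, CHI3L2, CHID1 and CTBS. Quasi-likelihood tests (edgeR, Benjamini-Hochberg adjusted p under 0.05) called 2 of these 3, both lower in shSATB1. Over all tested genes 30.9% were called, 16.6% lower and 14.3% higher in shSATB1. Since the contrast was used to choose the set, nothing is read from this count.

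CHID1 (ENSG00000177830, chromosome 11, 867860 to 915058, minus strand), the chitinase-like gene whose product binds stabilin-1, was modestly lower. Its level was 51.3, 56.1 and 52.9 CPM in shCtrl replicates 1, 2 and 3 and 40.0, 39.6 and 35.7 CPM in shSATB1. The log2 change of CHID1 was -0.48 (standard error 0.0713, 95% interval -0.63 to -0.32), which left 71.9% of the control level. STAB1, the gene of its scavenger receptor partner, stood at 0.327 ± 0.108 CPM in shCtrl and 0.552 ± 0.132 CPM in shSATB1, and did not pass the test.

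CTBS (ENSG00000117151, chromosome 1, 84549606 to 84574480, minus strand), the lysosomal chitobiase gene, was low, with an interval of the difference that includes 0. Its level was 1.97, 2.95 and 2.44 CPM in shCtrl replicates 1, 2 and 3 and 3.35, 2.72 and 2.93 CPM in shSATB1. Libraries held 55 to 92 CTBS reads. The groups overlapped in CPM, through shCtrl replicate 2, and did not overlap in TPM. CTBS changed by 0.29 on the log2 scale (standard error 0.189, 95% interval -0.12 to 0.70). It was 0.15 without shCtrl replicate 1, 0.45 without shCtrl replicate 2 and 0.68 with the no-exon share as a covariate. Exons of other genes, mainly SPATA1 on the opposite strand, cover 39.1% of the exon bases of CTBS. Without a stated strand setting, reads from the stretches shared with opposite-strand genes cannot be assigned to one gene or the other. AL359762.3 shares 12.3% of the exon bases of CTBS on the same strand, which no strand setting would tell apart.

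**Figure D3:**
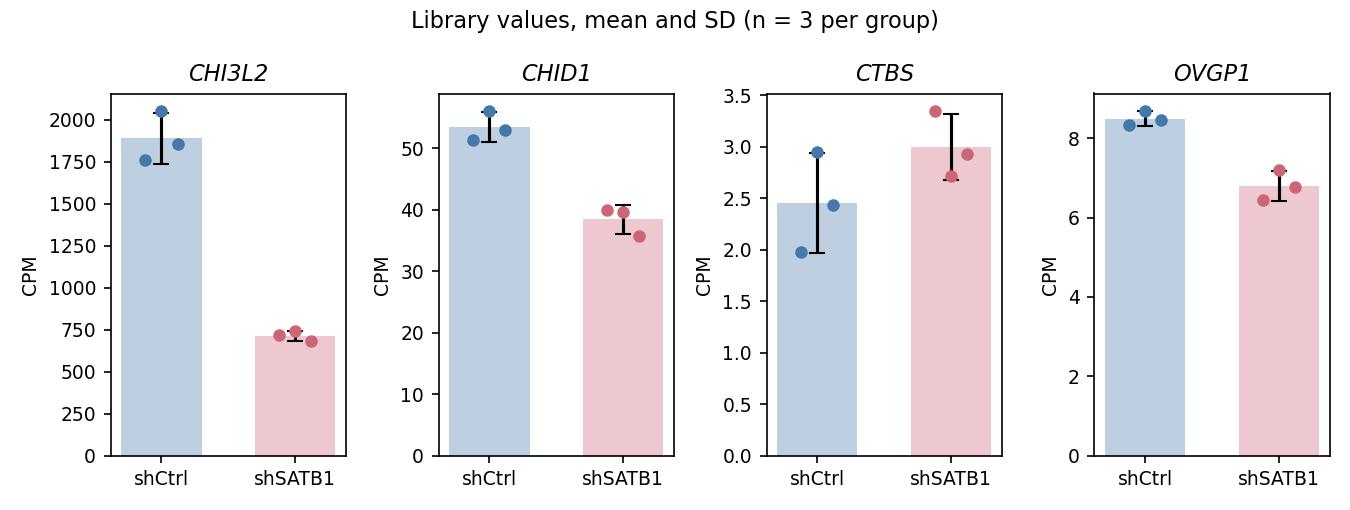
CPM of CHI3L2, CHID1, CTBS and OVGP1 in the 3 shCtrl (blue) and 3 shSATB1 (red) libraries, with bars at the mean and error bars of 1 SD; each axis starts at 0 and has its own range. CHI3L2 goes from 1889 to 713.7 CPM on average and CHID1 from 53.4 to 38.4 CPM, whereas the CTBS libraries of both groups overlap.

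The active chitinases and CHI3L1 were at or near the limit of detection. CHIT1, the macrophage chitinase gene (ENSG00000133063, chromosome 1, 203212827 to 203273641), had 2, 6 and 5 reads in shCtrl replicates 1, 2 and 3 and 8, 3 and 8 reads in shSATB1, which overlap. CHI3L1 (ENSG00000133048, chromosome 1, 203178931 to 203186749) had 3 reads in shCtrl replicate 2, 1 read in shSATB1 replicate 3 and none in the other 4 libraries. CHIA, the acidic chitinase gene (ENSG00000134216, chromosome 1, 111290862 to 111320566), had 1 read in shCtrl replicate 1 and none elsewhere. A count of 0 allows up to 3 reads, or 0.103 to 0.111 CPM at these depths, so no difference of CHI3L1 or CHIA between the groups was detectable.

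The transcripts of CHI3L2 were compared with those of other genes by exact match, which does not cover near matches or unannotated sequence. Of 3655 different runs of 50 bases in its GENCODE transcripts, 0 occurred in a transcript of another gene on either strand, and 0 of its 3295 exon bases were shared with another gene's exons. The same held for CHID1, with 0 of 6797 runs, and for CHIT1, with 0 of 7939. CTBS shared 36.2% of its runs, with SPATA1, AL359762.3 and AL359762.1. CHIA shared 5.56%, with the pseudogene CHIAP2 and the antisense gene AL356387.1, and CHI3L1 shared 0.914%.

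Beside the 6 members, 4 relatives of the family lie close to CHI3L2 on chromosome 1, OVGP1 and the chitinase pseudogenes CHIAP1, CHIAP2 and CHIAP3. OVGP1, which encodes an oviduct glycoprotein of the chitinase-like family, stood at 8.32, 8.69 and 8.46 CPM in shCtrl replicates 1, 2 and 3 and at 6.44, 7.20 and 6.76 CPM in shSATB1. OVGP1 fell with a log2 fold change of -0.32 (SE 0.107, edgeR adjusted p = 0.0363). The call was not stable. It was lost in 8 of 14 alternatives, with adjusted p from 0.0343 to 0.530, among them DESeq2 (0.0716), no filter (0.0630), the covariate (0.530) and leaving out any of 5 libraries. CHIAP1 was at 2.00 ± 0.355 CPM in shCtrl and 1.71 ± 0.429 CPM in shSATB1, with overlapping groups. CHIAP2 and CHIAP3 did not pass the filter, at no more than 5 reads in any library.

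The surroundings of CHI3L2 were then described, since the study's title concerns SATB1 and chromatin interactions. Of 39 other genes that start within 500 kb of the outermost CHI3L2 start, 18 passed the filter, and 6 of these fell and 1 rose, beside 30.9% called over all genes. Their median log2 fold change was -0.02, against 0.01 over all tested genes. None of the 6 fell as far as CHI3L2 on the log2 scale. The count of called genes was 3 with the no-exon covariate, 3 without shCtrl replicate 3, shSATB1 replicate 1 or shSATB1 replicate 3, and 2 without shSATB1 replicate 2.

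DENND2D, a regulator gene of Rab GTPases, starts 3.8 kb inside the CHI3L2 span, counted from the outermost GENCODE start, and runs the other way. Only 1 of 17 CHI3L2 transcripts begins at that outermost start. The RefSeq starts of CHI3L2 lie 26.9 kb downstream of it, beyond the start of DENND2D. It went from 20.4, 16.6 and 17.0 CPM in shCtrl replicates 1, 2 and 3 to 16.3, 13.1 and 12.7 CPM in shSATB1. The groups come close, and the log2 fold change was -0.36 (SE 0.114, edgeR adjusted p = 0.0282, 0.00275 to 0.149 over the alternatives). The call was lost without shCtrl replicate 1 or shSATB1 replicates 2 or 3. On the other flank, WDR77, which encodes a subunit of the PRMT5 methyltransferase complex, fell from 42.6 ± 1.09 to 31.6 ± 1.39 CPM (log2 fold change -0.43, edgeR adjusted p = 0.000424), and passed in all 14 alternatives. Its neighbour ATP5PB, a subunit gene of mitochondrial ATP synthase, fell from 203.3 ± 23.3 to 154.0 ± 1.12 CPM (log2 fold change -0.40, edgeR adjusted p = 0.00143), but missed the threshold once the covariate was added (adjusted p = 0.375, range 9.53e-08 to 0.375 among 14 alternatives).

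DRAM2, a gene of autophagy, and CEPT1, a phospholipid synthesis gene, start at -60.6 and -61.1 kb. DRAM2 fell by 0.28 on the log2 scale, from 40.5 ± 3.35 to 33.4 ± 3.02 CPM (edgeR adjusted p = 0.0226). The DRAM2 call was lost in 4 of 14 alternatives (without shCtrl replicate 3, shSATB1 replicate 1 or shSATB1 replicate 2, and with the covariate; adjusted p 0.00119 to 0.486). CEPT1 fell by 0.17, from 76.3 ± 0.613 to 68.1 ± 1.30 CPM (edgeR adjusted p = 0.0461), and lost the call in 10 of 14 alternatives (adjusted p 0.0447 to 0.279), among them leaving out any library but shCtrl replicate 1. CD53, a tetraspanin gene of leukocytes at -329.6 kb, rose by 0.20 on the log2 scale, from 175.0 ± 10.2 to 201.0 ± 4.83 CPM (edgeR adjusted p = 0.0263). The CD53 call was lost without shCtrl replicate 3 or any single shSATB1 library (adjusted p 0.000578 to 0.165 over the alternatives).

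The genes RAP1A, LRIF1, C1orf162 and PIFO, with log2 fold changes of -0.05, 0.01, 0.06 and -0.75, did not pass. Nor did the pseudogenes CHIAP1 and UBE2FP3 or the noncoding genes AL360270.1, AL360270.2, AL360270.3, AL390195.1 and AL390195.2, which ranged from -0.22 to 0.62. PIFO was at 0.619 ± 0.133 and 0.367 ± 0.0995 CPM.

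**Figure D4:**
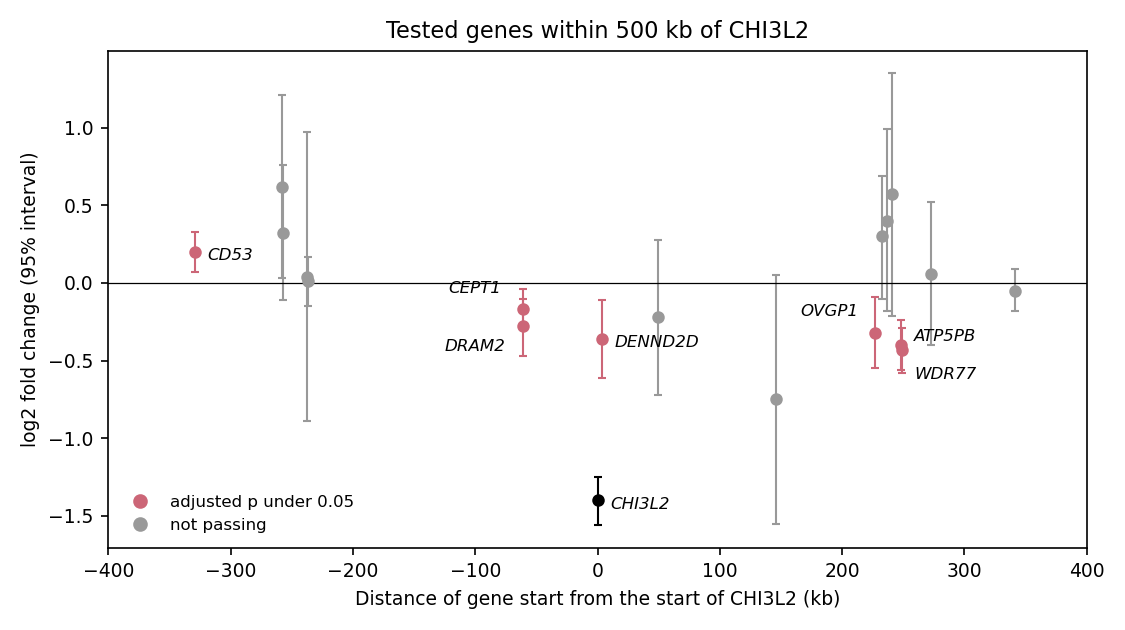
log2 fold change with its 95% interval (y axis) of CHI3L2 (black) and the 18 tested genes within 500 kb, by the distance of each gene's start from that of CHI3L2 in kb (x axis); red genes pass an adjusted p of 0.05 and grey genes do not. CHI3L2 at -1.40 lies below its neighbours, whose 6 falls reach -0.43. Distances are counted from the outermost GENCODE start of CHI3L2.

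The other members lie in different surroundings. CHI3L1 and CHIT1 share a stretch of chromosome 1, where 4 of 16 tested genes within 500 kb of CHI3L1 and 4 of 17 within 500 kb of CHIT1 were called, the same 4 genes, beside 30.9% of all tested genes. KDM5B, a histone demethylase gene, rose from 160.4 ± 13.5 to 240.4 ± 2.79 CPM (log2 fold change 0.58, edgeR adjusted p = 4.03e-05). BTG2, an antiproliferative gene 31.9 kb from the outermost GENCODE start of CHIT1, rose from 29.6 ± 2.34 to 40.6 ± 0.557 CPM (log2 fold change 0.45, edgeR adjusted p = 0.000575). RefSeq places the CHIT1 start 44 kb further from BTG2, where 4 of 9 GENCODE transcripts begin within 1 kb. KLHL12, a ubiquitin ligase adaptor gene, and ADIPOR1, an adiponectin receptor gene, fell by 0.23 and 0.19 on the log2 scale. KLHL12 lost the call without shSATB1 replicates 1 or 3 (adjusted p up to 0.0609) and ADIPOR1 in 5 of 14 alternatives (adjusted p 0.0113 to 0.598).

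Around CTBS, 3 of 10 tested genes rose and 3 fell, beside the 30.9% called over all tested genes. The rises were PRKACB, a catalytic subunit gene of protein kinase A, at 58.0 ± 3.20 and 83.1 ± 5.39 CPM (log2 fold change 0.52), SSX2IP (0.29) and AL359762.3 (1.52, from 0.171 to 0.495 CPM). The last shares exon bases with CTBS and lost the call in 6 of 12 alternatives. The falls were RPF1 (-0.39), MCOLN2 (-0.38) and AL359504.2 (-0.53). RPF1 and AL359504.2 did not pass with the covariate (adjusted p = 0.595 and 0.443). Around CHID1, 10 of 35 tested genes fell and 2 rose, a share near those 30.9%. RNH1, the ribonuclease inhibitor gene, fell from 93.6 ± 5.55 to 61.2 ± 4.78 CPM and HRAS, the small GTPase gene, from 22.4 ± 2.03 to 14.4 ± 0.949 CPM, with log2 fold changes of -0.61 and -0.64. LRRC56 rose by 0.54 and AP2A2 by 0.21. The largest log2 change was that of TOLLIP-AS1, an antisense gene at 1.64 ± 0.393 and 0.941 ± 0.206 CPM (-0.79, edgeR adjusted p = 0.0393), which lost the call in 5 of 14 alternatives (adjusted p 0.00699 to 0.157). HRAS missed the threshold with this covariate added (adjusted p = 0.0765, range 1.81e-09 to 0.0765 among 14 alternatives). Around CHIA, the 8 called genes of 20 tested were CHI3L2 and the 7 called neighbours of CHI3L2 given above.

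Genes that handle the same sugars were counted from 3 lists. Amino sugar metabolism, which makes and salvages N-acetylglucosamine and sialic acid, had 5 falls and 1 rise among 15 tested genes, with a median log2 fold change of -0.15 against 0.01 over all tested genes and 30.9% called among them. NANS, the sialic acid synthase gene, fell from 32.5, 40.7 and 37.2 CPM in shCtrl to 24.8, 26.0 and 23.1 CPM in shSATB1 (log2 fold change -0.58, edgeR adjusted p = 0.000361). UAP1, which makes UDP-N-acetylglucosamine, fell from 63.6, 70.2 and 66.1 to 48.3, 47.8 and 49.0 CPM (-0.46, edgeR adjusted p = 0.000159). GFPT1, the entry enzyme gene of the hexosamine pathway, fell from 121.7, 118.1 and 118.5 to 96.1, 87.2 and 91.4 CPM (-0.38, edgeR adjusted p = 0.000457). These 3 genes were named for the size of their change among those called, so the lack of overlap between their groups adds no support.

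NANP, a sialic acid phosphatase gene, fell from 48.0 ± 1.14 to 38.4 ± 0.925 CPM (-0.32), and GNPNAT1, the glucosamine-phosphate acetyltransferase gene, fell by 0.25 on the log2 scale. PGM3, a phosphoacetylglucosamine mutase gene of the same pathway, rose from 20.7 ± 0.579 to 25.1 ± 0.802 CPM (0.28). NANS and NANP missed the threshold with the covariate (adjusted p = 0.142 and 0.0740; 5.49e-10 to 0.142 and 0.000417 to 0.0740 over the alternatives). With that covariate 3 genes of the list fell and 0 rose, and with upper quartile scaling 5 fell and 4 rose.

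The list named lysosomal glycan breakdown holds mostly genes of the setting in which CTBS acts. It showed 2 rises and 0 falls among 16 tested genes, beside 30.9% called and 14.3% called higher over all tested genes. Its median log2 fold change was 0.04, against 0.01 over all tested genes. HEXA, the alpha subunit gene of beta-hexosaminidase, rose from 9.51, 8.44 and 10.1 CPM in shCtrl to 12.9, 12.8 and 11.4 CPM in shSATB1 (log2 fold change 0.40, edgeR adjusted p = 0.00988). AGA, which encodes the enzyme that frees the glycan from asparagine, rose from 8.20 ± 0.304 to 10.1 ± 0.114 CPM (0.30, edgeR adjusted p = 0.0325). HEXA missed the threshold with this covariate added (adjusted p = 0.388, range 0.00589 to 0.388 among 14 alternatives) and AGA in 8 of 14 alternatives (adjusted p 0.0207 to 0.216). The count was 1 without shCtrl replicates 1 or 3 or any single shSATB1 library, and 4 without shCtrl replicate 2.

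Of 9 genes for reported receptors and partners of chitinase-like proteins, 6 passed the filter and 0 were called by edgeR, DESeq2 or limma-voom. Over all tested genes edgeR called 30.9%. In this list 0 were at an unadjusted p under 0.05 by edgeR. The median log2 fold change was 0.02, against 0.01 over all tested genes. The list is short, and STAB1 and SDC1 averaged only 0.327 and 0.656 CPM in shCtrl. A count of 0 therefore does not show that these genes were unchanged. Without shCtrl replicate 1 the count was 1, CD44, named after its values were seen (adjusted p = 0.0429). TMEM219, which encodes a receptor subunit for CHI3L1, was at 63.6 ± 6.42 and 59.2 ± 5.02 CPM, and AGER, the gene of a receptor for glycated proteins, at 8.83 ± 0.364 and 9.34 ± 0.215 CPM. IL13RA2, whose product pairs with TMEM219, had no read in any library, which allows up to 3 reads per library. CD44, a hyaluronan receptor gene that did not pass the filter with all libraries, was at 0.157 ± 0.110 and 0.391 ± 0.168 CPM.

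**Figure D5:**
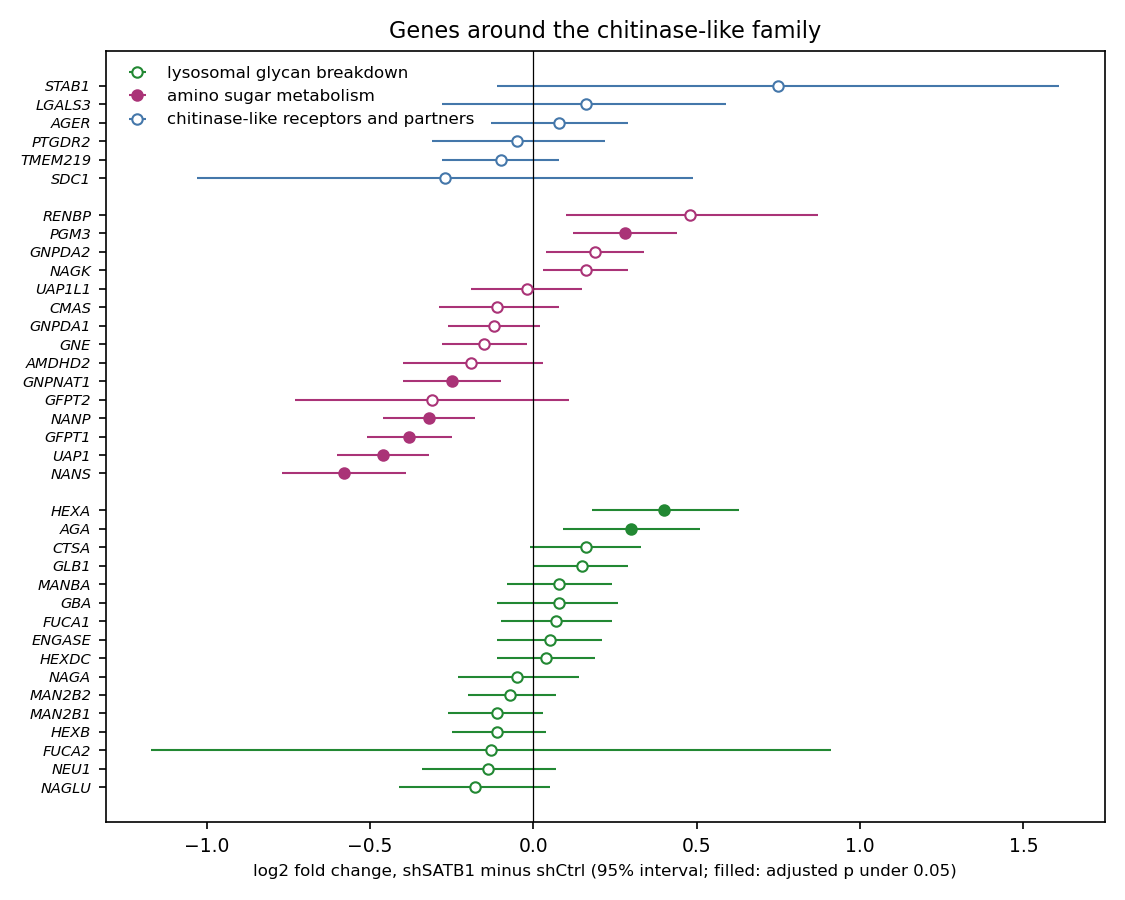
log2 fold change of shSATB1 against shCtrl with its 95% interval (x axis) for the tested genes of 3 lists (y axis, 1 gene per line), filled where the adjusted p is under 0.05. In amino sugar metabolism 5 genes fell and 1 rose, in lysosomal glycan breakdown 2 rose, and none of the 6 receptor and partner genes passed. Over all tested genes 30.9% passed.

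The pattern of CHI3L2 over the 6 libraries was compared with that of 9770 other genes with a mean of at least 10 CPM, by Pearson's correlation of log2 CPM. The highest were IMPA2 (0.9998), STAT5A (0.9995), DNTT (0.9994), PRKACA (0.9990) and CALR (0.9990). All 5 were lower in every knockdown library. DNTT, the terminal deoxynucleotidyl transferase gene, stood at 325.2, 378.0 and 330.5 CPM in shCtrl and 94.6, 97.7 and 91.1 CPM in shSATB1. IMPA2, an inositol monophosphatase gene, stood at 25.9, 27.9 and 26.4 CPM in shCtrl and 18.1, 18.2 and 17.8 CPM in shSATB1, a smaller difference. In CHI3L2 and in each of these genes shCtrl replicate 2 was the highest library. The 5 genes were picked for their correlation with CHI3L2. Sharing its highest library and being lower in every knockdown library follow from that choice and add no support. The 6 points fall into 2 groups and share library depth and scaling, so the coefficient mainly restates the difference between the groups and is given as a description.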

How the data were processed

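RNA-seq libraries from Jurkat cells, 3 with shCtrl and 3 with shSATB1, were grouped by their titles. For every library the authors deposited a table of raw counts by Ensembl gene ID. Trim Galore, STAR, HTSeq and hg38 are named in the submitters' processing notes, with no version or setting. Neither annotation release nor strand setting is given in the sources used here. All 58735 gene IDs were found in GENCODE 29, which gave symbols, exon lengths and hg38 positions. The 5 closing lines that name no gene were left out. Among them, reads in no annotated exon made up 7.77% to 11.7% of each library's listed reads, ambiguous reads 8.99% to 10.1% and reads aligned to several places 4.22% to 4.53%.

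The test was that of edgeR 4.0.16 in R 4.3.3: TMM scaling, filterByExpr with a minimum count of 10, the quasi-likelihood F test without covariates, and Benjamini-Hochberg adjustment over 17520 genes at a threshold of 0.05. Standard errors are the fold change divided by the square root of F. CPM are counts per 1000000 of the TMM-scaled library size. TPM are counts per merged exon length, scaled to 1000000 per library. Alternatives used DESeq2 1.42.0 and limma 3.58.1. The analysis was tested on simulated counts. Reads in genes numbered between 26626539 and 28913623 per library, so that 3 reads, taken as the floor, equal 0.103 to 0.111 CPM. The floor covers counting error only.

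The genes and lists were chosen with earlier results of these data known. Named genes were the members and SATB1. From each list came up to 4 genes that passed, taken by size of change among those reaching 2 CPM in either group. Where under 2 passed, the 2 most abundant were taken. Also named were the tested genes within 500 kb of CHI3L2, up to 4 genes of largest change that passed near the other members, and the 5 genes closest to CHI3L2 in pattern. Other genes of a count of 5 or fewer were chosen after their values were seen. A planned comparison of protein sequences was not made. Exact tests planned for the members under the filter are not given, since the set was chosen on the same contrast.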

Additional observations from a re-analysis of the deposited data

Results flagged for a closer look

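Reads in no annotated exon lie outside the gene counts. They made up 11.42 ± 0.436% (SD, n = 3) of the listed reads in shSATB1 and 9.10 ± 1.23% in shCtrl, and each knockdown library lay above each control library. Their part in the differences of CHI3L2 and its relatives was not tested beyond its use as a covariate, with which CHI3L2 changed by -1.18 on the log2 scale and CHID1 by -0.35.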

How the results depend on the processing

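Over 14 alternatives the log2 fold change lay between -1.46 and -1.18 for CHI3L2, between -0.51 and -0.35 for CHID1 and between 0.15 and 0.68 for CTBS. Since CHI3L2 was selected on this contrast, its range is a description and no evidence of stability. Without single libraries CHI3L2 ranged from -1.46 to -1.34. With the no-exon share as a covariate, 2120 genes (858 higher, 1262 lower) were called in place of 5410 (2500 higher, 2910 lower), 1 gene of lysosomal glycan breakdown in place of 2, 3 of amino sugar metabolism in place of 6 and 3 of the genes within 500 kb of CHI3L2 in place of 7. The 1 gene of the lysosomal list called with the covariate was neither HEXA nor AGA (edgeR adjusted p = 0.388 and 0.216). The lysosomal count was also 1 with no filter and with DESeq2. Leaving out single libraries gave 3487 (without shSATB1 replicate 1) to 6780 (without shCtrl replicate 1) genes over all, with 3502 without shSATB1 replicate 3, and 1 to 4 lysosomal, 4 to 9 amino sugar, 0 to 1 receptor and partner and 2 to 7 neighbouring genes. By the longest transcript of each gene, CHI3L2 exceeded CHID1 57.62 times in shCtrl and 30.33 times in shSATB1. Without single libraries these ratios were 63.0 to 65.12 and 33.28 to 34.41.

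Of the genes whose sign turned, only CD3D was called with all libraries under the planned design, and AL360270.2 was called with no filter, with the replicate block and without shCtrl replicate 1. With the covariate TMEM219 was at 0.21, CD3D at 0.04, UBE2FP3 at -0.19, AL390195.1 at -0.50, AL390195.2 at -0.31 and AL360270.2 at -0.35 on the log2 scale. LRIF1 was at -0.00 with no filter. Without single libraries LRIF1 ranged from -0.03 to 0.06, ITGAM from -0.06 to 0.23, C1orf162 from -0.10 to 0.18 and AL360270.3 from -0.17 to 0.49. The cause of these changes was not tested.

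Same-numbered libraries deviated together with correlations of 0.30, 0.18 and -0.07, and differently numbered ones with -0.28 to 0.06. With 3 libraries per group these values cannot decide whether the replicate numbers pair the samples. With the replicate number as a block 5903 genes were called (2783 higher, 3120 lower), and CHI3L2 stood at -1.40. Sequencing depth limits what can be said of CHI3L1, CHIA and CHIT1, which had at most 8 reads in any library.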
